A study of Mus musculus with 48 samples.

Results

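The neurons described here are cells of the E18.5 mouse hypothalamus preparation that carried transcripts of the LIM homeobox gene Lhx9 or of the homeobox gene Gbx2. A cell was taken when it had at least 2 UMIs (unique molecular identifiers, each standing for 1 captured RNA molecule) summed over Lhx9 and Gbx2 and at least 3 of the 6 neuronal transcripts Stmn2, Tubb3, Snap25, Syt1, Elavl4 and Rbfox3. In all, 453 of the 14121 cells in the table met this rule, out of 11122 cells that met its neuronal part. They are called Lhx9/Gbx2 cells below, and the remaining 10669 neurons are called other neurons. Measured values of Lhx9 and Gbx2 chose these cells, so the levels of both genes in these cells are a description and were not tested, and the shares of neurons that carry them are compared between genotypes only across embryos.

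Lhx9 and Gbx2 are transcription factors of the diencephalon, the part of the embryonic brain that gives rise to thalamus, habenula, prethalamus and, ventrally, much of the hypothalamic field. Gbx2 is known for its role in early thalamic neurons and their axons, and Lhx9 marks developing thalamic neurons as well as lateral hypothalamic neurons that make the arousal peptide hypocretin. Tcf7l2, a nuclear effector of Wnt signalling, is a widely used marker of thalamic and habenular neurons. Calb2 encodes the calcium-binding protein calretinin, which is abundant in midline thalamic neurons among other cell types. PRC2 is the Polycomb complex that deposits H3K27me3, a histone mark that keeps developmental regulators silent outside their domains, and Eed is 1 of its core subunits.

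Control embryos were Eed fl/fl and mutant embryos, called Eed-cKO, were Eed fl/fl carrying Sox1-Cre, so that the floxed Eed allele was shared by both groups and only the mutants carried the Cre, which is expressed from the Sox1 locus throughout the early central nervous system. The comparison asks what the loss of Eed did to these neurons. The hypothalamus of each embryo was dissected by hand and cut into pieces before droplet capture, giving 6 control embryos in 22 libraries and 9 Eed-cKO embryos in 26 libraries, of both sexes. The libraries of an embryo were summed, because the embryo is the animal. Embryo names begin with a prefix that several embryos share, 4 prefixes in control and 6 in Eed-cKO, and no prefix held both genotypes, so a difference between prefixes and a difference between genotypes cannot be told apart.

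UMI totals ran from 5363119 to 7487417 per control embryo and from 658175 to 6299181 per Eed-cKO embryo. In 203 of the 14121 cells the barcode also occurred in another library, and 6 of them were Lhx9/Gbx2 cells. Lhx9/Gbx2 cells were deeper than other neurons, with a median of 7712 against 5143 UMIs in control and 6966 against 4797.5 in Eed-cKO. The top 6% of Scrublet doublet scores in each library marked 8.36% of control and 7.75% of Eed-cKO Lhx9/Gbx2 cells, against 7.14% and 7.46% of other neurons. Eed itself was scarce: its level in Lhx9/Gbx2 cells was 32.1 ± 11.5 CPM (UMI counts scaled to a common library total, SD, n = 6) in control and 13.9 ± 12.9 (n = 5) in Eed-cKO, with 0 UMIs in embryos F0652_E5 and F0652_E8 and 10 in F502_E6, and the difference was not significant (log2 fold change -0.73 ± 0.46, SE, edgeR adjusted p = 0.589). The counted tags come from the 3′ end of transcripts and the floxed exons lie upstream of it, so this level does not check the genotype.

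Lhx9, on chromosome 1 (chr1:138825186-138848577, minus strand, GRCm38), was detected in 275 of 311 control and 127 of 142 Eed-cKO Lhx9/Gbx2 cells. Gbx2, also on chromosome 1 (chr1:89927956-89931179, minus strand), was detected in 179 of 311 and 31 of 142. Among the control cells, 132 carried Lhx9 alone, 36 Gbx2 alone and 143 both. Among the Eed-cKO cells, 111 carried Lhx9 alone, 15 Gbx2 alone and 16 both, and 13 of these 16 came from 1 embryo, F502_E6. Gbx2 stood at 263, 28.5, 375, 215, 261 and 94.8 CPM in the Lhx9/Gbx2 cells of control embryos F4520_E2, F4520_E4, F4530_E2, F4650_E1, F4650_E2 and F4690_E3. It stood at 14.7, 23.5, 34.1, 89.5 and 129 CPM in Eed-cKO embryos F0588_E7, F0589_E1, F0652_E5, F0652_E8 and F502_E6, the 5 mutant embryos with at least 10 such cells. Just inside the rule, 83 control cells had exactly 2 UMIs and 73.5% of them carried Tcf7l2. Just outside it, 200 control neurons had 1 UMI and 43% of them did, against 13.4% of neurons with none.

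The working name of these cells was calretinin-rich, with Cbln2, Car10, Nwd2, Calb2 and Trh as accompanying markers, and the data were in part against it. Calb2 was detected in 59.5% of control Lhx9/Gbx2 cells against 29% of other neurons, but in only 35.2% of the Eed-cKO cells. Cbln2, which encodes a secreted synaptic organizer, was detected in 62.1% of control cells, Car10, a carbonic anhydrase-related protein that binds neurexins, in 57.9%, and Nwd2 in 34.4%. Trh, the precursor of thyrotropin-releasing hormone, had UMIs in 3 of the 311 control cells and in 2 of the 142 from Eed-cKO, a smaller share than the 3.38% and 4.27% of other neurons, so this part of the name went against the data. These 5 genes were given with the rule and are described without a test between cell sets within a genotype.

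The share of Lhx9/Gbx2 cells among neurons varied widely between embryos and was not shown to differ between genotypes when every embryo was kept. In control it was 6.61% in F4520_E2 (60 of 908 neurons), 1.00% in F4520_E4 (10 of 1000), 7.07% in F4530_E2 (66 of 933), 9.09% in F4650_E1 (72 of 792), 5.47% in F4650_E2 (75 of 1371) and 3.13% in F4690_E3 (28 of 894). In Eed-cKO it was 1.02% in F0571_E3 (9 of 882), 2.65% in F0582_E2 (4 of 151), 1.22% in F0582_E7 (7 of 576), 2.84% in F0588_E7 (20 of 703), 2.12% in F0589_E1 (16 of 754), 1.80% in F0652_E5 (14 of 779), 1.64% in F0652_E8 (10 of 608), 14.5% in F502_E6 (56 of 385) and 1.55% in F502_E9 (6 of 386). The highest share of all was therefore in a mutant embryo, while the other 8 mutants lay below all controls but F4520_E4. The exact 95% binomial interval of F502_E6 began at 11.2%, above the interval of every other embryo of either genotype except F4650_E1, whose interval was 7.18% to 11.3%. These intervals cover counting error only.

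The mean share was 5.40% ± 2.91 (SD, n = 6) in control and 3.27% ± 4.27 (n = 9) in Eed-cKO, and an exact two-sided permutation test over embryos gave p = 0.337 (adjusted p = 0.445 over 4 shares). Without F502_E6 the mutant mean was 1.86% and the same exact test gave p = 0.00599, which stayed at 0.00599 after adjustment. The share of neurons with at least 2 UMIs of Lhx9 behaved alike, at 4.37% ± 2.47 against 2.82% ± 3.87 (exact permutation p = 0.445). The shares counted by Gbx2 use a gene of the rule itself. Neurons with at least 2 UMIs of Gbx2 made up 2.37% ± 1.79 in control and 0.576% ± 0.895 in Eed-cKO (exact permutation p = 0.0192, adjusted p = 0.0384), and those with both genes 2.45% ± 1.70 and 0.425% ± 1.11 (exact permutation p = 0.00919, adjusted p = 0.0368). Both calls were marginal: leaving out any 1 of 11 of the 15 embryos raised the adjusted p above 0.05, to at most 0.0919, as did thinning every cell to 2000 UMIs (both adjusted p = 0.0807). F502_E6 also stood apart in Ttr, a choroid plexus transcript, with 919 CPM in its other neurons against at most 3.25 CPM in those of any other embryo. The part of this in the shares was not tested.

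**Figure D1:**
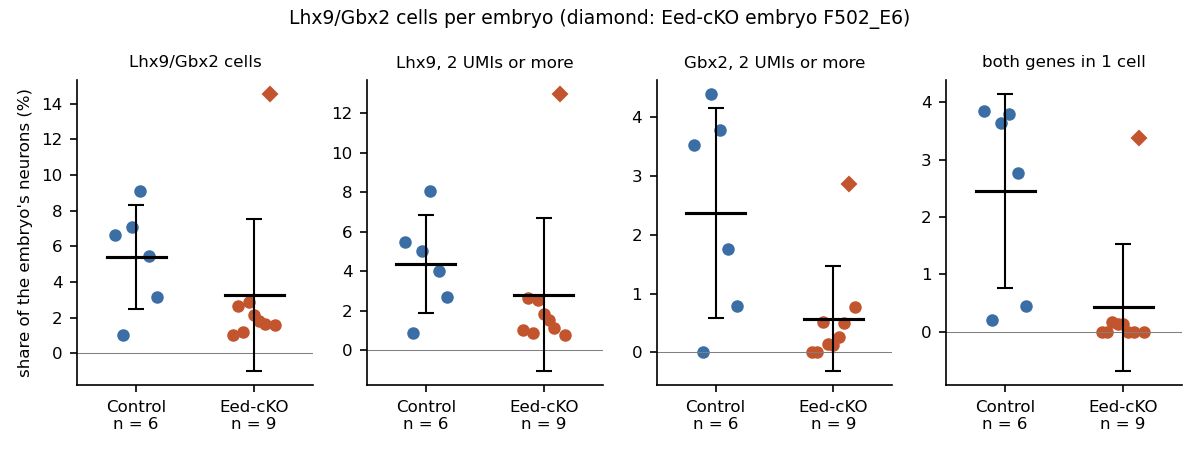
Share of each embryo's neurons (vertical axis, percent) that were Lhx9/Gbx2 cells, that had at least 2 UMIs of Lhx9, at least 2 of Gbx2, or UMIs of both genes, with 1 point per embryo and the mean with its SD as bars. The mutant embryo F502_E6 (diamond) lies at 14.5% in the first panel, above all 6 controls, while the other mutants lie between 1.02% and 2.84%.

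In control embryos the Lhx9/Gbx2 cells differed from other neurons of the same embryos by high levels of thalamic transcription factors and low levels of most of the hypothalamic transcription factor, GABAergic and neuropeptide genes tested. The test was edgeR's quasi-likelihood test on counts summed per embryo with the embryo as a block, with p-values adjusted by Benjamini-Hochberg over 11848 genes, the genes of the rule and its markers left out. Of these genes 421 were higher (3.55%) and 352 lower (2.97%) at an adjusted p of at most 0.05. Scaling by library totals instead of TMM gave a split of 343 higher and 444 lower. In such sums fewer cells of a type and less RNA per cell cannot be told apart.

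Tcf7l2 (chr19:55741820-55933654, plus strand, GRCm38) gave the clearest contrast. It stood at 3474, 1254, 3075, 3003, 2033 and 2112 CPM in the Lhx9/Gbx2 cells of control embryos F4520_E2, F4520_E4, F4530_E2, F4650_E1, F4650_E2 and F4690_E3. Other neurons of the same embryos had 345, 110, 435, 417, 197 and 147 CPM, so that the cell sets did not overlap. The log2 fold change was 3.30 ± 0.09 (SE, adjusted p = 2.51e-27). A UMI of Tcf7l2 was found in 255 of 311 control cells (82%), in 141 of the 143 cells with both Lhx9 and Gbx2, in 91 of 132 with Lhx9 alone and in 23 of 36 with Gbx2 alone.

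In the thalamic list 8 of 10 genes were higher in control Lhx9/Gbx2 cells and none was lower, with a median log2 fold change of 1.49 against -0.01 over all genes tested. The LIM homeobox gene Lhx2, a close relative of Lhx9, stood at 134 ± 41.2 against 13.4 CPM (3.30 ± 0.16), and the forkhead gene Foxp2 at 545 against 134 CPM (2.06 ± 0.10). Ntng1, a membrane-anchored netrin of thalamic axons, was higher by 1.26 ± 0.11, Slitrk6, a synaptic adhesion protein, by 1.72 ± 0.26, and the homeobox gene Prox1 by 1.79 ± 0.29. Lef1, a partner of Tcf7l2 in Wnt signalling, was higher by 1.14 ± 0.29 but not without F4650_E1 (0.72, adjusted p = 0.244). Rorb, a nuclear receptor of sensory thalamus, was higher by 0.54 ± 0.16 but not without F4530_E2 (0.37, adjusted p = 0.328) or F4650_E1 (0.43, adjusted p = 0.233). Rora and Zfhx3 did not pass (0.05 ± 0.21 and -0.15 ± 0.09).

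Other transcription factors were higher too. The homeobox gene Shox2 stood at 80.0 to 250.3 CPM in the 6 control embryos and at 2.28 to 13.6 CPM in their other neurons (4.29 ± 0.23, adjusted p = 8.83e-18). Its exons overlap those of Rsrc1 on the opposite strand, and whether the counting used strand is not given in the sources used here. Kitl, the ligand of the Kit receptor, stood at 1022, 442, 997, 837, 463 and 669 CPM in the 6 embryos in the order above, each above the 37.7 to 223 CPM of other neurons (2.90 ± 0.12). The zinc-finger genes Zic1, Zic2 and Zic4 were higher by 1.66 ± 0.09, 2.15 ± 0.13 and 1.98 ± 0.10, although Zic1 and Zic4 overlap each other. The nuclear receptor Nr2f1 was higher by 1.61 ± 0.12 and Foxp1 by 1.56 ± 0.10. Slc17a6, the vesicular glutamate transporter of diencephalic neurons, was higher by a small amount, 494 ± 77.0 against 383 ± 43.4 CPM (0.38 ± 0.08, adjusted p = 0.00134), and this difference was gone when cells with Slc32a1 were removed from both sets (-0.02, adjusted p = 0.922). Sox2, listed here with the cycling progenitor markers, was higher by 1.12 ± 0.10, with UMIs in 55.0% of control Lhx9/Gbx2 cells and 28.1% of other neurons. Mki67 and Top2a, genes of dividing cells, were too scarce to be tested, with UMIs in 2 and 3 of 311 cells.

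The lateral hypothalamic list gave the opposite picture from the thalamic one in the same cells. None of its 9 tested genes was higher and 4 were lower, with a median of -0.78. Pmch, the melanin-concentrating hormone precursor, stood at 2.47 against 102 CPM (-4.77 ± 0.32), and Gal (-1.60 ± 0.20), Cartpt (-1.59 ± 0.39) and Nts, neurotensin (-0.78 ± 0.22), were lower, the last not without F4520_E4 (-0.71, adjusted p = 0.114) or F4650_E2 (-0.62, adjusted p = 0.128). Hcrt, the hypocretin precursor, did not pass the filter on low values, and it was concentrated in a few cells. At least 10 Hcrt UMIs were found in 4 control Lhx9/Gbx2 cells, 3 in F4690_E3 and 1 in F4650_E2, with up to 436 in 1 cell. Among all other control neurons, 1 cell in F4530_E2 reached that number. Set side by side, 8 of 10 thalamic and 0 of 9 lateral hypothalamic genes were higher, and 0 of 10 and 4 of 9 were lower.

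The habenular list was mixed: 2 of 5 tested genes were higher and none lower, with a median of 1.34. Gng8, a G protein subunit, stood at 49.96 against 3.56 CPM (3.90 ± 0.36), and Slc5a7, the choline transporter, was higher by 1.34 ± 0.39, but not without F4520_E2, F4530_E2 or F4650_E1 (1.14 to 1.27, adjusted p = 0.121 to 0.203). Pou4f1, the defining habenular factor, did not pass (1.62 ± 0.56, adjusted p = 0.0804) and was found in 11 of 311 cells, 10 of them with Lhx9 alone. Of 6 telencephalic genes tested, Tbr1 was higher and Emx2 and Neurod6 were lower.

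Hypothalamic regional transcription factors were low in these cells, with 13 of 15 tested genes lower, none higher and a median of -2.79. Six6, a hypothalamic and eye field gene, stood at 1.73 against 38.7 CPM (-4.12 ± 0.42), Sim1, of the paraventricular nucleus, at 2.76 against 54.4 (-3.96 ± 0.32) and Foxb1, of the mammillary body, at 5.44 against 110.1 (-3.99 ± 0.31). Nkx2-1, which marks much of the ventral hypothalamus, was lower as well (-1.72 ± 0.15). All 11 tested genes of the GABAergic and prethalamic list were lower, with a median of -2.37: Gad1, a GABA-synthesizing enzyme, stood at 85.2 ± 49.8 against 403 ± 40.1 CPM (-2.37 ± 0.17), Slc32a1, the vesicular GABA transporter, at 24.6 ± 12.8 against 123 ± 22.8 (-2.26 ± 0.19), and the homeobox gene Dlx1 at 11.4 against 206 (-4.04 ± 0.20, in part sharing exons with its antisense partner). Of 21 neuropeptide genes tested, 18 were lower and none higher. Vasopressin, Avp, stood at 9.17 against 709 CPM (-5.83 ± 0.17), and Npy (-7.32 ± 0.34) and oxytocin, Oxt (-6.13 ± 0.39), were lower too. Npy had 2 UMIs and Oxt 3 in all control Lhx9/Gbx2 cells, so that the pooled ratio was 166 with an exact 95% counting interval of 46.0 to 1372 for Npy and 80.4 with 27.5 to 390 for Oxt.

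**Figure D2:**
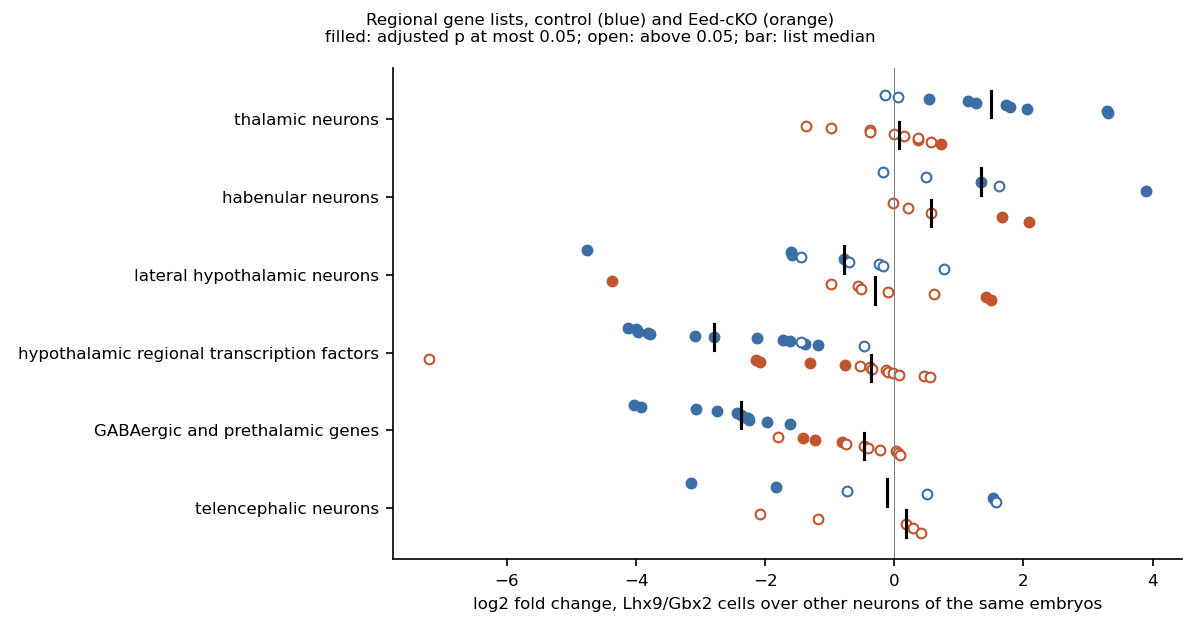
Log2 fold change of Lhx9/Gbx2 cells over other neurons of the same embryos (horizontal axis) for the tested genes of 6 regional lists, with control in blue (6 embryos) and Eed-cKO in orange (5 embryos). In control, 8 of 10 thalamic genes are called higher and 13 of 15 hypothalamic and 11 of 11 GABAergic genes lower, while in Eed-cKO the list medians lie at 0.07, -0.36 and -0.47.

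Because the cells were chosen by homeobox transcripts, the promoters of the genes higher in them were searched for TAATTA, a core that homeodomain proteins of the LIM class can bind, which reads the same on both strands. In the window from 250 bases before to 50 after the annotated start (RefSeq, GRCm38.p6), it occurred in 2.71% of 442 promoters of genes higher in control Lhx9/Gbx2 cells, 2.92% of 15614 promoters of genes in the table and 5.29% of all 32851 promoters, so it was not more frequent there. Among the transcription factor and transmitter genes named above as higher it was found in 1 promoter each of Foxp1 (chr6:99266466-99266765, minus strand) and Slc17a6 (chr7:51624387-51624686, plus strand), shown 5′ to 3′ with the motif in capitals because both genes are called higher.
Foxp1: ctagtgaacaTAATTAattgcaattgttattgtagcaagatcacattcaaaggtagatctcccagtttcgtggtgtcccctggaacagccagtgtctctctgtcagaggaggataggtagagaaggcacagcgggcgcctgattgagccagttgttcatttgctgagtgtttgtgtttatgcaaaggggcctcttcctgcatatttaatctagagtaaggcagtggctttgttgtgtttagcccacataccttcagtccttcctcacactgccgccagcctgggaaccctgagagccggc
Slc17a6: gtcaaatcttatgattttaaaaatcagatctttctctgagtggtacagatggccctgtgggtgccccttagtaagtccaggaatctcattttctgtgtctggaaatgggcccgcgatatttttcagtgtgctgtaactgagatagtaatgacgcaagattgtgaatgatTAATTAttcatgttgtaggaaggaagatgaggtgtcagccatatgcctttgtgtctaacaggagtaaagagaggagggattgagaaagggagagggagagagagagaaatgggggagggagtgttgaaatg
Such a match describes the sequence and says nothing of binding.

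In Eed-cKO embryos the Lhx9/Gbx2 cells had higher Zic and Ebf genes than other neurons of the same embryos, and lower Nkx2-1, Foxb1, Nts, Npy and Avp. Of 12317 genes tested, 45 were higher (0.365%) and 58 lower (0.471%), and with RLE scaling the split was 56 and 47. This fit rests on 5 embryos with 10 to 56 such cells each. Of the genes tested in both genotypes, 18 were higher in both, which is 4.34% of the 415 higher genes of control and 47.4% of the 38 of Eed-cKO. For lower genes the shared number was 36, or 10.7% of 338 and 63.2% of 57. Of the 103 genes called, 68 went the same way in every embryo, as did 1392 of all 12317 genes tested (11.3%). The test favours genes that move alike, so this count is no separate support. Without F0588_E7 the number called fell to 63.

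Zic4 was higher by 1.41 ± 0.14 (adjusted p = 1.31e-21), Zic1 by 0.92 ± 0.11 and Zic2 by 1.02 ± 0.16. Zic1 stood at 426, 517, 698, 478 and 854 CPM in the Lhx9/Gbx2 cells of F0588_E7, F0589_E1, F0652_E5, F0652_E8 and F502_E6, each above the 240.3 to 368 CPM of other neurons. The Ebf genes, factors of early neuronal differentiation, were higher in the mutant cells than in other mutant neurons, Ebf3 by 1.41 ± 0.14 and Ebf1 by 1.73 ± 0.26. Nefl, a neurofilament gene, was higher in the mutant cells by 0.97 ± 0.16. Nkx2-1 (-2.14 ± 0.22), Foxb1 (-2.08 ± 0.29), Nts (-4.38 ± 0.47), Npy (-3.50 ± 0.41) and Avp (-3.30 ± 0.28) were lower.

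Several other calls in Eed-cKO depended on 1 embryo. Tcf7l2 was called higher (0.72 ± 0.16, adjusted p = 0.00177), but it was above other neurons in F502_E6 alone (1367 against 263 CPM) and below them in the other 4 embryos (14.9 to 44.1 against 89.2 to 129.6 CPM). Without F502_E6 the difference had the opposite sign and passed the test (-1.34, adjusted p = 0.00527). Pou4f1 was higher (2.09 ± 0.47) but not without F502_E6 (1.88, adjusted p = 0.169), and Shox2 was higher (1.09 ± 0.22) but not without F0588_E7 (0.70, adjusted p = 0.477). Cartpt was higher (1.495 ± 0.20) but not without F0588_E7 (0.65, adjusted p = 0.544), the embryo with 504 CPM. Of the thalamic list, Zfhx3 was also called higher (0.37 ± 0.09), not without F0652_E5, F0652_E8 or F502_E6 (0.29 to 0.33, adjusted p = 0.125 to 0.335). The thalamic list had a median of 0.07, against -0.04 over all genes tested, and the lateral hypothalamic list of -0.31 with Ebf3 and Cartpt higher and Nts lower. Hypothalamic transcription factors had a median of -0.36 with 4 of 14 lower, and GABAergic genes of -0.47 with 3 of 11 lower.

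Compared between genotypes, the Lhx9/Gbx2 cells of Eed-cKO embryos had lower levels of 7 of 10 thalamic genes than those of control. They had higher levels of 7 of 11 GABAergic genes. They also held transcripts of hypothalamic factors such as Six6 that were scarce in the control cells. Transcripts of Hox genes, Tal1, Gata3 and En1 were present too and were at or near 0 in control. These last 2 points are a description. Other neurons of Eed-cKO embryos also carried Hox genes, Tal1, Gata3 and En1. In this comparison 161 of 11111 genes tested were higher (1.45%) and 117 lower (1.05%) in Eed-cKO, over 6 and 5 embryos. The split moved to 173 higher and 79 lower with RLE scaling and to 187 and 74 with library size alone. Thinning every cell to 2000 UMIs gave 33 higher and 48 lower, and taking embryos with at least 5 cells gave 178 and 192. Without F502_E6, 206 genes were called, 168 of them among the 278.

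In the thalamic list 7 of 10 genes were lower and none higher, with a median of -1.55 against -0.03 over all genes tested. Tcf7l2 stood at 44.1, 39.2, 42.6, 14.9 and 1367 CPM in F0588_E7, F0589_E1, F0652_E5, F0652_E8 and F502_E6, so that 4 mutants lay far below the control range of 1254 to 3474 and 1 inside it. The log2 fold change was -2.67 ± 0.47 (adjusted p = 0.000309) and reached -5.96 without F502_E6. Foxp2 stood at 88.2, 31.4, 51.1, 209 and 203 CPM in the same order, all below the 293 to 854 of control (-2.15 ± 0.29, adjusted p = 4.28e-06). Lhx2 was lower (-1.33 ± 0.29, adjusted p = 0.0054), with 73.5 CPM or less in every mutant and 74.1 or more in every control. Rorb was lower as well (-1.77 ± 0.40). Prox1 (-3.07 ± 0.68) and Slitrk6 (-2.48 ± 0.60) were lower and had UMIs in only 1 of the 5 mutant embryos, F502_E6. Prox1 had 3 UMIs there against 81 in control, a pooled ratio of 8.90 with an exact 95% counting interval of 2.94 to 44.1. Slitrk6 did not pass without F0588_E7 (-2.12, adjusted p = 0.0636). Ntng1 was lower (-1.22 ± 0.30) but not without F0588_E7, F0589_E1 or F0652_E5 (-0.98 to -1.16, adjusted p = 0.0590 to 0.110). Beyond the list, Kitl (-2.28 ± 0.35) and Nr2f1 (-2.35 ± 0.27) were lower, while Zic1 (0.07 ± 0.22), Zic4 (-0.37 ± 0.27) and Shox2 (-0.46 ± 0.28) did not pass.

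Per embryo, 73.5% ± 20.3 of Lhx9/Gbx2 cells carried a UMI of Tcf7l2 in the 6 controls and 31.6% ± 34.2 in the 5 mutants (exact permutation p = 0.0433, adjusted p = 0.0519 over 5 shares). The controls had 86.7%, 40%, 84.8%, 81.9%, 90.7% and 57.1%, and the mutants 30%, 12.5%, 14.3%, 10% and, in F502_E6, 91.1%. Without F502_E6 the mutant mean was 16.7% (exact permutation p = 0.00952, adjusted p = 0.0119). The remaining 4 mutant embryos, which had fewer than 10 cells each, held 2 of 9, 1 of 4, 1 of 7 and 2 of 6 cells with Tcf7l2. Non-neuronal cells with endothelial or microglial markers carried it in 30.2% of 149 cells in control and 27.0% of 152 in Eed-cKO, and some of these cell types may express it.

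Of the genes given with the rule, Calb2 (chr8:110137502-110168210, minus strand) was lower in Eed-cKO. It stood at 756, 171, 421, 674, 547 and 299 CPM in the control embryos and 78.4, 39.2, 111, 74.6 and 261 in the mutants, so that only F502_E6 overlapped with control (-1.88 ± 0.30, adjusted p = 6.02e-05). Car10 was lower (82.0 against 223 CPM, -1.34 ± 0.28). Cbln2 was lower (-1.12 ± 0.29) but not without F0588_E7, F0589_E1, F0652_E8 or F4520_E2 (-0.88 to -0.997, adjusted p = 0.0839 to 0.134). Nwd2 was at 0.00 ± 0.35, with 422 CPM in F502_E6 and 14.9 to 59.6 in the other mutants. In the calcium-binding list 1 of 12 tested genes was higher and 1 lower, with a median of -0.02. The higher one was Hpca, hippocalcin (1.24 ± 0.30), not without F0588_E7 (0.78, adjusted p = 0.298), and the lower one Calb1, calbindin (-1.23 ± 0.32), not without F0588_E7, F0652_E5, F0652_E8, F502_E6 or F4690_E3 (-0.98 to -1.22, adjusted p = 0.0620 to 0.176).

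GABAergic genes were higher, 7 of 11 with none lower and a median of 2.04. Gad1 (chr2:70553072-70602014, plus strand) stood at 36.8, 114, 27.4, 62.4, 123 and 148 CPM in control and 455, 494, 477, 522 and 266 CPM in Eed-cKO, with no overlap (2.48 ± 0.28, adjusted p = 1.39e-07). Slc32a1 stood at 14.3 to 45.4 CPM in control and at 73.8 to 239 in Eed-cKO (2.30 ± 0.32, adjusted p = 5.86e-06). Meis2, a homeobox gene of GABAergic lineages, was higher by 2.86 ± 0.35, Isl1 by 2.04 ± 0.43 and Gad2 by 1.61 ± 0.36. Dlx1 was higher by 1.94 ± 0.55 (adjusted p = 0.0488), a call kept only on leaving out F0588_E7, F502_E6, F4650_E2 or F4690_E3 and otherwise lost (1.23 to 1.93, adjusted p = 0.0718 to 0.479). With every cell carrying Slc32a1 removed, F502_E6 was the only mutant embryo left, and there Meis2 (-0.28), Isl1 (-1.87) and Dlx1 (-4.63) were negative and none was called. The glutamate transporter Slc17a6 was not shown to change (494 ± 77.0 against 519 ± 110.3 CPM, 0.13 ± 0.15, adjusted p = 0.841).

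Per embryo, 9.53% ± 4.75 of Lhx9/Gbx2 cells carried a UMI of Slc32a1 in control and 53.0% ± 15.4 in Eed-cKO (exact permutation p = 0.00216, the smallest these 462 splits allow, adjusted p = 0.00361). Controls ran from 3.33% to 17.3% and mutants from 28.6% in F502_E6 to 70% in F0652_E8. Other neurons had 23.1% to 34.2% in control and 30.6% to 39.7% in Eed-cKO. After thinning to 2000 UMIs per cell, with 5 and 4 embryos left, the shares of Lhx9/Gbx2 cells with Slc32a1 were 4.32% and 13.1% (exact permutation adjusted p = 0.0529). Both transporters occurred together in 6.24% ± 3.90 (control) and 49.7% ± 14.7 (Eed-cKO) of cells (adjusted p = 0.00361 by the same exact test). The study reported more cells with both transporters in Eed-cKO among all hypothalamic cells of these same embryos. The direction of this share and of the Slc32a1 share is therefore not independent evidence. Both were found in 3.23% to 9.26% of other neurons in control and in 20.8% to 26.5% in the 5 mutants. After the same thinning the shares of Lhx9/Gbx2 cells with both were 1.203% and 5.10% (exact permutation adjusted p = 0.159), and other neurons of those 4 mutant embryos had 5.94% to 11.2%. As a measure of free RNA, cells with endothelial or microglial markers that failed the neuronal rule had Slc32a1 in 4.70% of 149 cells in control and 0 of 152 in Eed-cKO, and Slc17a6 in 8.05% and 9.21%, at median depths of 3691 and 3593 UMIs. Slc17a6 itself was found in 83.3% ± 6.72 and 92.4% ± 6.18 of Lhx9/Gbx2 cells (exact permutation adjusted p = 0.0519).

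**Figure D3:**
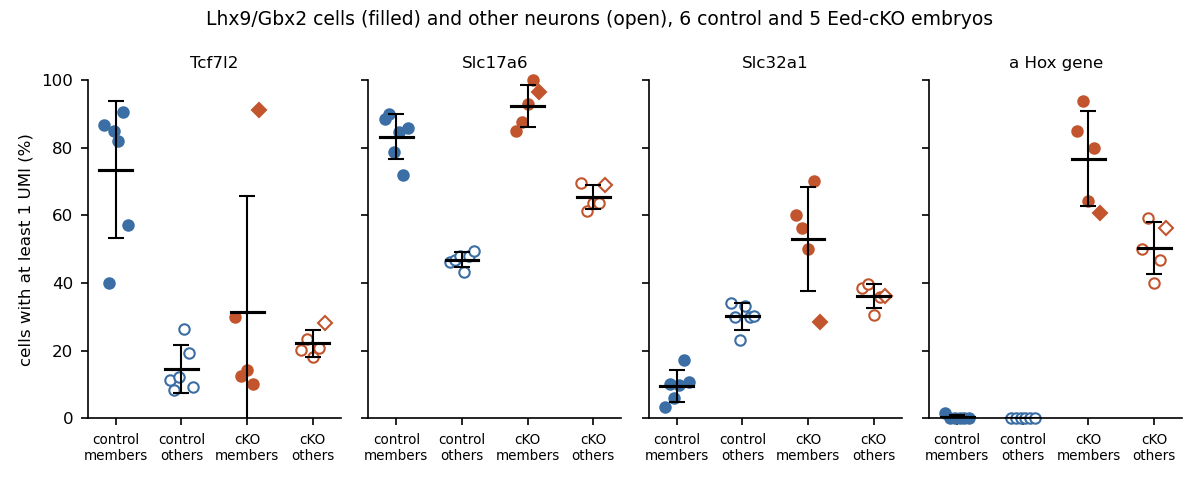
Percent of Lhx9/Gbx2 cells (filled) and of other neurons (open) with at least 1 UMI of Tcf7l2, Slc17a6, Slc32a1 or any Hox gene (vertical axis), with 1 point per embryo for 6 control (blue) and 5 Eed-cKO embryos (orange) and the mean with its SD. F502_E6 (diamond) lies with the controls for Tcf7l2, at 91.1%, and apart from them for Hox genes, at 60.7%.

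Of 21 hypothalamic regional transcription factors, low in the control cells, 12 passed the filter in this comparison. Six6, Barhl1, Lmx1a and Sim1 had 5, 6, 5 and 8 UMIs in control, below the 15 that the filter asked for. They passed it only through their level in Eed-cKO, so no count or median is read from this list. The fitted changes of Six6, Barhl1 and Sim1 are given as a description. Six6 rose from 1.73 to 64.7 CPM (4.54 ± 0.66). Barhl1 rose by 3.69 ± 0.70 and Sim1 by 2.64 ± 0.66, the last not without F0589_E1, F0652_E5 or F4520_E2 (2.33 to 2.49, adjusted p = 0.0545 to 0.107). Of the lateral hypothalamic list 2 of 8 tested were higher and 2 lower. Cartpt rose by 4.39 ± 0.56, with 0 to 25.7 CPM in control and 504, 86.2, 42.6, 0 and 166 in Eed-cKO. Ebf3 rose by 1.98 ± 0.41 (96.0 ± 73.8 to 312 ± 162 CPM), and Ebf1, outside the list, by 3.74 ± 0.48. Nts was lower (-3.38 ± 0.73) but not without F502_E6 (-2.63, adjusted p = 0.0615). Hcrt was called lower (-6.41 ± 1.53, adjusted p = 0.0126), a difference that rests on the 4 hypocretin-rich control cells of F4690_E3 and F4650_E2, since no mutant cell had more than 2 Hcrt UMIs.

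Hox genes, which pattern hindbrain and spinal cord and are normally silent in the forebrain, were present in the mutant cells. Of the 39 Hox genes, 34 were in the table and 13 passed the filter in this comparison, a filter that a gene absent from control could pass only by being high in Eed-cKO. All 13 were higher, from which nothing is read, and this list was singled out by the study on these samples, so its direction is not independent evidence. Hoxc13 (chr15:102921103-102928814, plus strand) was at 0 in every control embryo and at 97.9, 149, 179, 134 and 73.8 CPM in the 5 mutants. Counted over the group against a floor of 3 UMIs it was at least 98.1-fold higher, Hoxc10 at least 97.1-fold and Hoxb13 at least 75.8-fold. Hoxc10 overlaps the exons of Hoxc5. Any Hox gene was detected in 1 of 311 control cells (0.278% ± 0.680 per embryo), against 76.8% ± 14.0 of cells per Eed-cKO embryo (exact permutation p = 0.00216, adjusted p = 0.00361). In other neurons of those mutant embryos the share was 39.9% to 59.3%, and in the endothelial and microglial marker cells 1 of 149 in control and 7.24% in Eed-cKO. Compared with other Eed-cKO neurons, Hoxb13 and Hoxc13 were higher in the Lhx9/Gbx2 cells (1.25 ± 0.25 and 1.05 ± 0.21) but neither without F0652_E5 (0.96 and 0.82, adjusted p = 0.100 and 0.0803).

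Of 9 midbrain and pretectal genes, 4 passed the same filter, Tal1, Gata3 and En1 only through their level in Eed-cKO, so no count is read from this list. Tal1, a factor of midbrain GABAergic neurons, was at 0 in 5 control embryos and 3.67 CPM in F4650_E1. In the mutants it was at 176, 196, 196, 134 and 126 CPM. The edgeR test of Tal1 is not read, because the filter admitted the gene through Eed-cKO. The pooled counts of Tal1 were 2 UMIs in control and 141 in Eed-cKO, a ratio of 214 with an exact 95% counting interval of 58.1 to 1783. Gata3 and En1 were at 0 in all control Lhx9/Gbx2 cells and at least 46.5-fold and 20.2-fold higher in Eed-cKO. Other neurons, pooled over all embryos, carried Tal1, Gata3 and En1 in 1.27%, 1.18% and 0.609% of cells in control. In Eed-cKO the shares were 29.8%, 12.5% and 5.43% of other neurons and 52.1%, 15.5% and 10.6% of Lhx9/Gbx2 cells. Otx2 rose by 1.28 ± 0.34, but not without F0652_E5, F502_E6, F4520_E2 or F4650_E2 (0.68 to 1.25, adjusted p = 0.0560 to 0.602). Of the genes outside the lists, Dmbx1 and Vax2, both homeobox genes, and Twist1, a basic helix-loop-helix gene, were at 0 in control and at least 54.6-fold, 42.5-fold and 43.5-fold higher. The cell cycle inhibitor Cdkn2b, of a list that the study also singled out on these samples, was at 0 in control and at least 19.2-fold higher. All of these genes passed the filter only through Eed-cKO, so their tests are not read and no count is taken from the inhibitor list. Of 8 PRC2 subunits none passed (median -0.23). Of 28 axon guidance genes 1 was higher, the semaphorin receptor Nrp1 (0.75 ± 0.21), and 3 were lower, the ephrin receptors Epha5 (-1.63 ± 0.30) and Epha4 (-1.36 ± 0.34) and the ligand Efnb2 (-1.86 ± 0.50). The call of Epha5 held on leaving out any 1 embryo. The others were lost without F0652_E5 or F0588_E7 among others, Nrp1 without any 1 of 7 embryos (0.56 to 0.78, adjusted p = 0.0681 to 0.273), Epha4 without F0588_E7, F0652_E5, F502_E6 or F4520_E2 (-1.17 to -1.32, adjusted p = 0.0633 to 0.132) and Efnb2 without F0588_E7, F0652_E5, F0652_E8, F502_E6 or F4530_E2 (-1.44 to -1.85, adjusted p = 0.0637 to 0.258).

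**Figure D4:**
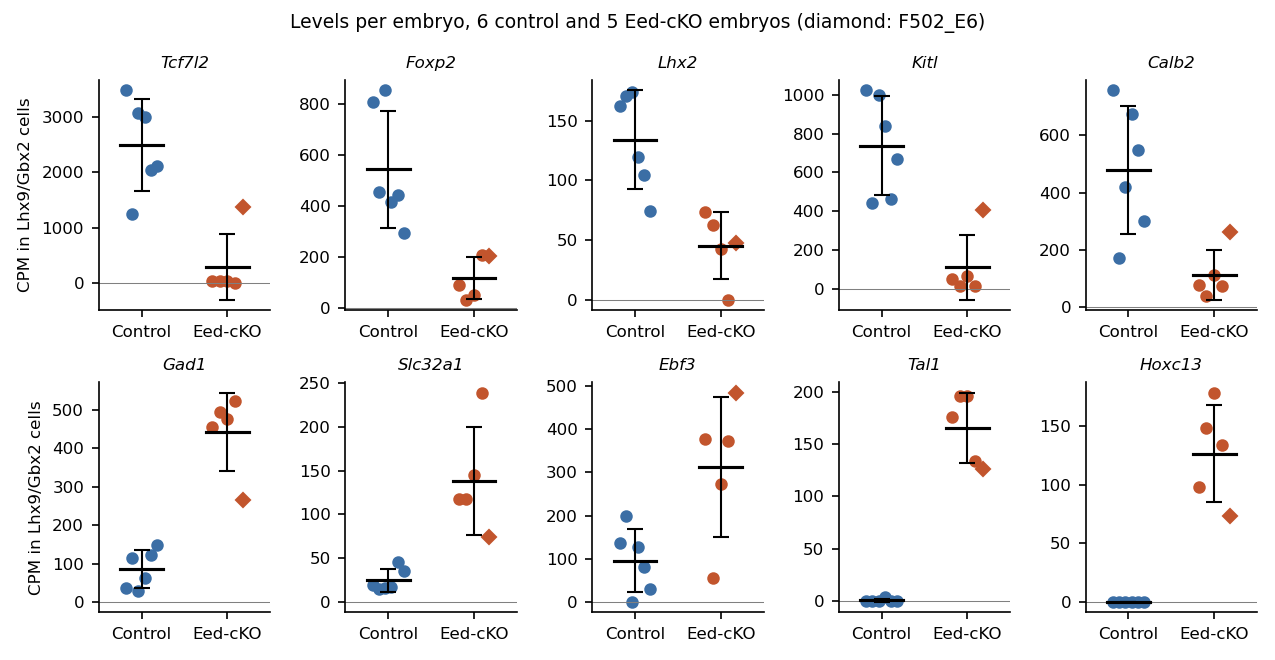
Level in Lhx9/Gbx2 cells (vertical axis, CPM, linear and scaled per panel) of 10 genes in 6 control and 5 Eed-cKO embryos, with 1 point per embryo and the mean with its SD. For Gad1, Tal1 and Hoxc13 the genotypes do not overlap, while for Tcf7l2 F502_E6 (diamond, 1367 CPM) lies within the control range and the other 4 mutants at 14.9 to 44.1 CPM.

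The genotype change of the Lhx9/Gbx2 cells was tested for a difference from that of all other neurons in the same embryos. Those other neurons are a mix of types, with Gad1 in 44.7% and Slc32a1 in 30.0% of them in control. No comparison was made with only those other neurons that carry Slc17a6 or Tcf7l2. A difference here therefore does not make a change particular to the Lhx9/Gbx2 cells. Of 12032 genes, 50 had a more positive change in Lhx9/Gbx2 cells (0.416%) and 45 a more negative one (0.374%), and RLE scaling gave 60 and 33. Without F502_E6 the number rose from 95 to 148. In the thalamic list 4 of 10 had a more negative change and none a more positive one. The log2 difference was -2.93 ± 0.29 for Lhx2, -2.35 ± 0.29 for Tcf7l2, -2.02 ± 0.23 for Foxp2 and -3.11 ± 0.81 for Prox1, the last lost on leaving out any 1 of 8 of the 11 embryos (at most adjusted p = 0.197). Lhx2 stood at 13.4 CPM in control and 41.0 in Eed-cKO in other neurons, against 134 and 45.2 in Lhx9/Gbx2 cells. Shox2 stood at 8.21 and 53.5 CPM in other neurons, against 169.6 and 99.5 in Lhx9/Gbx2 cells (-3.17 ± 0.33). Kitl (-2.01 ± 0.28) and Calb2 (-1.21 ± 0.26) also differed, Calb2 not without F0589_E1 (-1.01, adjusted p = 0.0510). Calb2 was given with the rule as a marker of these cells, and this difference includes the contrast between cell sets. Its value is therefore a description.

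In the positive direction 7 of 11 GABAergic genes differed. Gad1 was 403 CPM in control and 428 in Eed-cKO in other neurons, against 85.2 and 443 in Lhx9/Gbx2 cells (2.38 ± 0.25), and Slc32a1 differed by 2.29 ± 0.30 and Meis2 by 2.41 ± 0.34. Dlx1 differed by 2.79 ± 0.49 but not without F0589_E1 (2.13, adjusted p = 0.0581). Of 15 hypothalamic factors 6 differed as well, among them Six6 (3.99 ± 0.64), together with Cartpt (3.09 ± 0.53), Ebf1 (3.196 ± 0.48) and Ebf3 (2.13 ± 0.37). Tfap2b differed by -5.64 ± 0.62: it was at 1.28 CPM in other control neurons, 131 ± 169 in control Lhx9/Gbx2 cells, 108 in other Eed-cKO neurons and 185 ± 54.1 in Eed-cKO Lhx9/Gbx2 cells. The control level came from 5 cells of 4 embryos, with up to 46 UMIs each, while 36 Eed-cKO cells carried the gene at up to 20 UMIs.

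Traces of other cell types differed between sets and embryos. In control the astrocyte gene Fabp7 was higher in Lhx9/Gbx2 cells than in other neurons (254 ± 191 against 115 CPM, 1.32 ± 0.17), and the 6 astrocyte markers summed to 42.1 to 638 CPM in Lhx9/Gbx2 cells and 75.0 to 409 in other neurons. In Eed-cKO those ranges were 14.9 to 666 and 204 to 614 CPM. Microglial markers summed to at most 3.66 CPM in control Lhx9/Gbx2 cells and reached 79.0 CPM in F502_E6, where 1 cell had 70 UMIs of the chemokine Ccl3 and 19 of the complement gene C1qb. Ttr was found in 28 of the 56 Lhx9/Gbx2 cells of F502_E6 and in 3 cells of all other embryos together. The part of these in the results was not tested, except that removing cells with a UMI of C1qa, C1qb or Csf1r left each of the 4 counts of called genes within 1.5 times its value.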

How the data were processed

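Single cells of the E18.5 mouse hypothalamus, 48 libraries of 15 embryos, were captured with the SureCell 3′ kit on a ddSEQ instrument. Per the labels and the study's methods, reads were aligned to mm10 with STAR 2.5.2b and SAMtools 1.3, cells with few UMIs were removed, and the authors deposited unnormalised UMI counts per gene and cell (16510 genes, 14121 cells). Whether counting used strand is not given in the sources used here. Sample groups came from the titles.

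UMI counts of Lhx9/Gbx2 cells and of other neurons were summed per embryo, and embryos with at least 10 Lhx9/Gbx2 cells were compared (6 control, 5 Eed-cKO). The filter on low values, after the study's, asked for 15 UMIs over embryos, 2 UMIs in any embryo and a log-CPM median of 1.5, and the genes passing it were tested with edgeR 4.0.16 (R 4.3.3, TMM scaling, quasi-likelihood F test, Benjamini-Hochberg, adjusted p at most 0.05). Comparisons of cell sets within a genotype had the embryo as a block. SEs were derived from each log2 fold change and its F statistic. CPM levels use TMM library sizes. Shares of cells were compared by exact two-sided permutation tests over embryos. Their p-value is the share of splits of the embryos with a mean difference at least as large. Binomial intervals used scipy 1.17.1. Embryos, not cells, were the samples. Doublets were marked, not removed, from Scrublet scores (scanpy 1.11.5). Alternatives were DESeq2 1.42.0, limma 3.58.1 voom (TREAT, minimum log2 change 0.18), other scalings, filters and rules, thinning to 2000 UMIs, and each embryo left out. Scripts were checked on simulated counts. Gene positions and exon overlaps came from the GENCODE annotation, and promoters from RefSeq (GRCm38.p6).

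The members, gene lists and tests were chosen with earlier results of these data known. Genes named were the markers of the rule, the first 2 and up to 4 called genes of each list, and the 10 largest rises and falls with non-overlapping genotypes or the same direction in every embryo. Ttr, Ccl3, Tfap2b and other single genes outside that rule were chosen after their values were seen. Of 325 list genes, 314 were in the table and the others were not analysed here.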

Additional observations from a re-analysis of the deposited data

Results flagged for a closer look

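Embryo F502_E6 stood apart from the other Eed-cKO embryos in 11 of the 17 quantities, out of 112 groups of embryos examined, in which the highest or lowest embryo lay far from the rest. A chance rate of about 1 in 20 would hold only for independent groups of normally spread values. The groups here are not independent, because several shares count the same cells. For the Hox share in F4520_E2, Tal1 in F4650_E1, and Prox1 and Slitrk6 in F502_E6, no other embryo of that genotype had a UMI. Any count there is flagged. The 17 are therefore a description and are not compared with a chance rate. The neurons of F502_E6 held 14.5% Lhx9/Gbx2 cells and 13.0% with at least 2 UMIs of Lhx9. They held 2.86% with at least 2 of Gbx2 and 3.38% with both genes. Its Lhx9/Gbx2 cells had Tcf7l2 in 91.1% and at 1367 CPM, Kitl at 406 CPM, Nr2f1 at 298 CPM, Slitrk6 at 15.8 CPM and Prox1 at 7.90 CPM, each above the other mutants, and Gad1 at 266 CPM, below them. The other 6 were in control embryos. F4520_E2 had a Hox gene in 1.67% of its Lhx9/Gbx2 cells, F4650_E1 had Tal1 at 3.67 CPM and Ebf1 at 25.7 CPM, and F4650_E2 had Six6 at 6.81 and Barhl1 at 11.3 CPM. Hcrt stood at 1988 CPM in F4690_E3.

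The genotype change differed between Lhx9/Gbx2 cells and other neurons, by the edgeR interaction test, for 20 genes named here. The log2 difference was negative for Lhx2 (-2.93), Shox2 (-3.17), Tcf7l2 (-2.35), Foxp2 (-2.02), Kitl (-2.01), Prox1 (-3.11), Calb2 (-1.21), Tfap2b (-5.64), Zic2 (-1.12) and Nts (-3.62). It was positive for Gad1 (2.38), Slc32a1 (2.29), Meis2 (2.41), Dlx1 (2.79), Six6 (3.99), Ebf1 (3.196), Ebf3 (2.13), Cartpt (3.09), Tal1 (3.14) and En1 (7.56). En1 was at 0 UMIs and Tal1 at 2 in control Lhx9/Gbx2 cells, so neither of these 2 calls is read as a result. The value of Calb2, a marker given with the rule, is a description. The fitted value of En1 depends on the fit's prior count and is left out. The difference for Tal1 was not called without F4520_E2 (adjusted p = 0.0639) or F4530_E2 (adjusted p = 0.0669), for Zic2 without F0588_E7 (adjusted p = 0.0678) or F0589_E1 (adjusted p = 0.0688), and for Nts without F502_E6 (-2.15, adjusted p = 0.251).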

How the results depend on the processing

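Counts of called genes moved with the method, the filter and the cells and embryos that entered. The 278 genes between genotypes became 140 with edgeR's own filter, 142 with limma-voom and TREAT, 95 with at least 20 cells per embryo, 62 with at least 3 UMIs of Lhx9 and Gbx2, 81 after thinning, 153 with libraries as samples, 24 with Slc32a1 cells removed and 38 in cells with Tcf7l2. The last 2 left 1 Eed-cKO embryo, F502_E6, whose spread is assumed to be that of controls. Libraries as samples set 12 control libraries against 2 of Eed-cKO. Both of the latter came from F502_E6, so they are not independent mutant samples. The 773 of the control sets became 495 with DESeq2, 301 with TREAT and 313 after thinning. The 103 of the Eed-cKO sets became 68 with edgeR's filter, 31 with DESeq2, 8 with TREAT, 171 with at least 5 cells, 49 with at least 3 UMIs and 24 after thinning, and Slc32a1 cells removed gave no value. The 95 of the difference became 170 with the filter of 15 UMIs alone, 48 with DESeq2, 18 with TREAT, 150 with at least 5 cells, 24 with at least 20, 19 with at least 3 UMIs, 30 after thinning and 16 with Slc32a1 cells removed.

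With libraries as samples the share of Lhx9/Gbx2 cells differed by -2.42 percentage points (permutation adjusted p = 0.0203) and that with at least 2 UMIs of Lhx9 by -1.81 (permutation adjusted p = 0.0380), but libraries of an embryo are not independent. The Gbx2 share was not called with 1 UMI in the rule (-2.43) or after thinning (-0.563), nor was that with both genes after thinning (-0.774). With doublets removed Slc17a6 (12.0) and Tcf7l2 (-49.2) were called. After thinning Slc32a1 (8.83) and both transporters (3.90) were not, nor with at least 3 UMIs (36.6 and 39.4), nor any Hox gene there (71.1), a design of 5 against 2 embryos.

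Leaving out 1 embryo at a time gave 198 to 301, 521 to 835, 63 to 102 and 70 to 148 genes in the 4 comparisons. Differences in share ran from -3.54 to -1.39 for Lhx9/Gbx2 cells, -2.82 to -0.805 for Lhx9, -2.27 to -1.39 for Gbx2 and -2.48 to -1.75 for both. Within Lhx9/Gbx2 cells they ran from 6.85 to 10.9 for Slc17a6, 39.2 to 49.5 for Slc32a1, 38.4 to 48.8 for both transporters, -56.8 to -36.6 for Tcf7l2 and 72.2 to 80.5 for Hox genes.

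The sign changed as follows, and the cause was not tested. Between genotypes, with Slc32a1 cells removed, Meis2 was at -0.28, Isl1 at -1.87 and Dlx1 at -4.63. With libraries, where both Eed-cKO libraries were of F502_E6, Isl1 was at -0.13 and Dlx1 at -0.31. In cells with Tcf7l2 they were at -0.015 and -1.11, and with at least 20 cells Dlx1 was at -0.033. Slc17a6 in the control sets was at -0.021 with Slc32a1 cells removed. In the Eed-cKO sets Tcf7l2 was at -0.72 with DESeq2 and from -1.34 (without F502_E6) to 0.996 (without F0588_E7) on leaving out embryos, and Tfap2b at -0.018 with at least 3 UMIs. For the difference, with Slc32a1 cells removed Calb2 was at 0.24, Meis2 at -0.93 and Dlx1 at -6.15, and with at least 3 UMIs Dlx1 at -6.07.

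No paired analysis was possible because embryo numbers differ between genotypes and no name prefix held both. With 10 to 75 cells per embryo, the smallest counts limit what could be detected.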
